A study of Mus musculus with 24 samples.

Results

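Cytochrome P450 genes were followed in the inguinal fat pad of mice in which the clock gene Bmal1 was deleted with an adipocyte Cre. The members are all genes whose platform symbol is Cyp followed by a family number, a subfamily letter and a gene number, taken from probe sets with exactly 1 symbol. 82 of the 19938 genes measured met this rule, each through 1 probe set. 14 of the 82 had a mean log2 expression over all arrays above 6.50, the median of the means of all genes, and the description centres on these 14. A further 7 probe sets carry a P450 symbol together with other symbols and were not used to name a gene.

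The study hybridised 1 Affymetrix mouse gene array per animal, 24 in all, in 8 groups of 3 biological replicates. Knockout mice (Ad-Bmal1-/-) had the genotype aP2-Cre+/- Bmal1fx/fx and control mice the genotype Bmal1fx/fx, and fat was taken from each at CT0, CT6, CT12 and CT18, where CT0 starts the subjective day. Both genotypes had been backcrossed to C57BL/6J for 6 generations or more, ate chow, had been in darkness for 36 h and were fasted for 24 h. The control mice carry no Cre, so an effect of Cre itself cannot be told apart from that of the deletion. The aP2 promoter drives Cre in adipocytes, and recombination in other cells of the pad was not tested.

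P450 enzymes are haem proteins that insert an oxygen atom into lipophilic substrates, with electrons supplied by a reductase or a ferredoxin. Families 1 to 3 mainly oxidise drugs and foreign compounds, family 4 and the Cyp2j enzymes act on fatty acids and arachidonic acid, and the remaining families make or clear steroids, bile acids, vitamin D and retinoic acid. Many of them are best known from liver, where several follow the clock through the PAR bZIP factors Dbp, Tef and Hlf, which the clock drives directly. CLOCK and BMAL1 together bind the E-box CACGTG.

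Promoters are shown for 4 members with the lowest genotype p-values, opposite genotype differences at 2 times (neither significant after adjustment), or an E-box. They are the 250 bases before the annotated start, read 5′ to 3′ on the coding strand, from the RefSeq table of GRCm38.p6, with matches to CACGTG or AGGTCA in capitals. Cyp2e1 (chr7:140763569-140763818, plus strand) holds neither motif. Cyp2f2 (chr7:27119705-27119954, plus strand) and Cyp2b23 (chr7:26686431-26686680, minus strand) each hold AGGTCA, the core motif of many nuclear receptors. Cyp2j6 (chr4:96553652-96553901, minus strand) holds CACGTG from -44 to -39.
Cyp2e1: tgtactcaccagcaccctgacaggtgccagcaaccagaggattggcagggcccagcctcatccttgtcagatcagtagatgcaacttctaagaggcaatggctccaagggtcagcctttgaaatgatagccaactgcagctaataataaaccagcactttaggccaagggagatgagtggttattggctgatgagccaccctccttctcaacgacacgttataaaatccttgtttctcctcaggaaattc
Cyp2f2: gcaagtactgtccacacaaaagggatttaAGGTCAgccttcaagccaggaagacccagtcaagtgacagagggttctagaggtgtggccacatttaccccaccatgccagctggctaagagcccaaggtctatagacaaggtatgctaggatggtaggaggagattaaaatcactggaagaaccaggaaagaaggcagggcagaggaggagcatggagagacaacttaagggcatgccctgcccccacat
Cyp2b23: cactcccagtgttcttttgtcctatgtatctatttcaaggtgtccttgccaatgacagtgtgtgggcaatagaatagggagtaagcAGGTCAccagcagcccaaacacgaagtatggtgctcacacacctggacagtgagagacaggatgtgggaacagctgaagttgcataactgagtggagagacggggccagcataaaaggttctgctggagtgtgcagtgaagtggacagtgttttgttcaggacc
Cyp2j6: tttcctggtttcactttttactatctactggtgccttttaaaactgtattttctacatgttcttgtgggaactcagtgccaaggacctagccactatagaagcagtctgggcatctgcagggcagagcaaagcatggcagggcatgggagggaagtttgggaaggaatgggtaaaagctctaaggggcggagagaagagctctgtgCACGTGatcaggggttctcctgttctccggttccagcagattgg

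63 of the 82 members, and 12 of the 14 above the median, matched an entry of that promoter table. On either strand, CACGTG occurred in 1 of the 12 promoters of the expressed members, that of Cyp2j6, and in 1 of the 71 promoters listed for all members (1.41%), against 6.02% of the 32851 promoters in the table. AGGTCA occurred in 2 of the 12 and in 16 of the 71 (22.5%), against 14.0% of all promoters. A match is a run of letters in this window and says nothing of binding.

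Of 45 members of the drug and foreign compound group, 6 lay above the median of all genes. These were Cyp2e1 (probe set 10558673, mean log2 expression 12.17), Cyp2d22 (10430851, 8.71), Cyp1b1 (10453057, 7.36), Cyp2f2 (10551293, 7.08), Cyp2d40 (10430899, 6.98) and Cyp2b23 (10561153, 6.53). Of 20 members that act on fatty acids and eicosanoids, 5 lay above it: Cyp4b1 (10515201, 8.26), Cyp2j9 (10514520, 7.37), Cyp2j6 (10514510, 7.36), Cyp4f13 (10449955, 7.04) and Cyp4f16 (10443869, 6.77). Of 6 bile acid and oxysterol enzymes, Cyp27a1 (10347481, 7.60), the mitochondrial sterol 27-hydroxylase, and Cyp39a1 (10445308, 6.80), an oxysterol 7-alpha-hydroxylase, lay above it. Cyp20a1 (10346747, 7.54), an orphan enzyme with no settled substrate, completed the 14. A level belongs to its own probe set, so the order of levels between genes was not read.

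None of the 5 enzymes of steroid hormone synthesis lay above the median, and their means ran from 4.27 for Cyp17a1 to 5.28 for Cyp11b2. The 3 retinoic acid enzymes Cyp26a1, Cyp26b1 and Cyp26c1 had means of 4.64 to 5.95. The vitamin D enzymes Cyp27b1 and Cyp2r1 had means of 5.21 and 4.86. Among the bile acid enzymes, Cyp7a1, the rate-limiting enzyme of bile acid synthesis, had a mean of 4.17, and Cyp8b1, Cyp46a1 and Cyp7b1 lay between 5.58 and 5.95. In all, the 68 members not above the median had means of 3.04 to 6.42. Just inside the threshold were Cyp4f16 at 6.77 and Cyp2b23 at 6.53, and just outside it were Cyp2s1 at 6.42 and Cyp2u1 at 6.22.

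**Figure D1:**
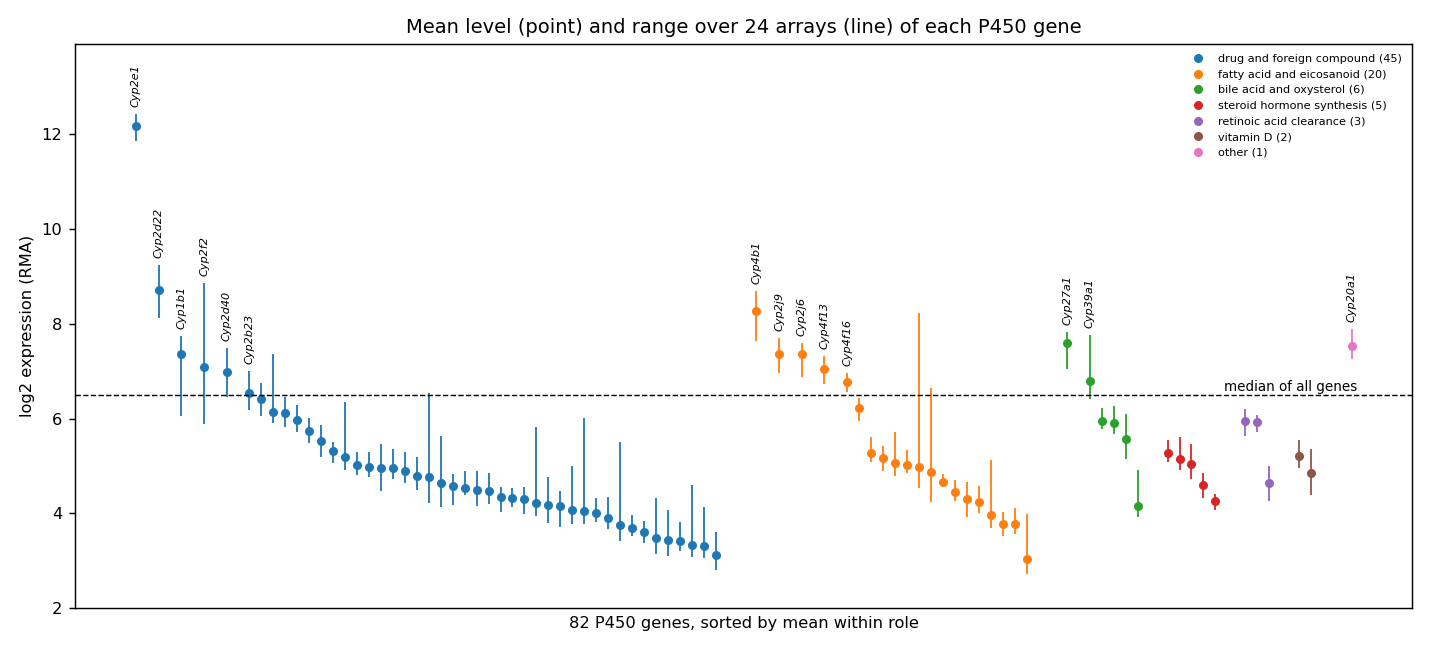
Mean log2 expression (points) of the 82 P450 genes and the range over 24 arrays (vertical lines), grouped by role, with the median of all genes (6.50) as a dashed line. The 14 genes above the line are named; several genes below it have long upper lines that end on 1 array.

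The expressed members differed in how far they ranged between animals. The SD over the 24 arrays had a median of 0.207 log2 units among the 14. Cyp4f16 had an SD of 0.109 and Cyp2e1 one of 0.167, with Cyp2e1 between 11.85 and 12.41. Cyp2f2, known for activating naphthalene in the mouse lung, had an SD of 0.895 and ran from 5.90 to 8.87. Cyp1b1, a target of the aryl hydrocarbon receptor that oxidises oestradiol and aromatic hydrocarbons, had an SD of 0.374 and ran from 6.05 to 7.74.

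Features of single arrays bear on these values. The means of 10 adipocyte markers lay between 10.36 and 11.13 on all arrays, and all 10 lay above the median of all genes on each. Knockout replicate 2 at CT0 had the lowest adipocyte mean, 10.36 against 10.71 to 11.13 on the others. It also had the highest means of uterine epithelium markers (6.10 against 5.23 to 5.46, 6 measured) and of mammary and skin epithelium markers (7.05 against 6.01 to 6.52, 8 measured). Of these markers, 2 of 6 and 4 of 8 lay more than 1 log2 unit above their own median. The same array had the lowest macrophage (7.72 against 8.05 to 9.10) and endothelium (7.83 against 7.95 to 8.50) means and the highest smooth muscle mean (10.36 against 8.44 to 10.26). It was the lowest of the 24 arrays for 8 of the 14 expressed members and the highest for Cyp39a1. Knockout replicate 2 at CT6 had the highest liver markers, as described at the end. Its steroidogenic gland mean (6.71 against 6.06 to 6.43) and its fibroblast and progenitor mean (9.35 against 8.63 to 9.24) were also the highest. The targeted gene, Arntl, lay at 7.97 on all 3 control arrays at CT0 and at 7.30 to 7.51 on the knockout arrays. At CT12 it lay at 6.75, 6.04 and 6.22 in control replicates 1 to 3 and at 6.46, 6.89 and 6.87 in knockout replicates 1 to 3. Each array labelled replicate 1 thus lay nearer to replicates 2 and 3 of the other genotype. Replicate 1 had the direction seen at CT0, with the knockout array lower, and replicates 2 and 3 had the opposite one. At CT6 all knockout arrays (7.08, 6.90 and 6.88) lay above all control arrays (6.82, 6.82 and 6.54), against the direction of the label. At CT18 the genotypes overlapped, with 7.04, 7.38 and 7.55 in control and 7.43, 7.29 and 7.07 in knockout replicates 1 to 3. Replicates 2 and 3 thus had the direction seen at CT0 and replicate 1 the opposite one. The mean difference over the 4 times was 0.01 ± 0.08 (SE, limma adjusted p = 0.997). Earlier work on these data set replicate 1 at CT12 and replicate 3 at CT18, of both genotypes, on the side of the other genotype, and the main results are therefore also given without these 4 arrays. In Arntl at CT18, control replicate 3 (7.55) was nearest to knockout replicate 1 (7.43), and knockout replicate 3 (7.07) to control replicate 1 (7.04). The Arntl values of replicates 1 and 2 of the 2 genotypes overlapped there. Replicate numbers were not taken to pair the arrays. The directions within a replicate number given here for CT12 and CT18 are thus descriptions only.

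Averaged over the 4 times, 9 of the 14 expressed P450 genes had lower means in knockout than in control fat, with a median difference of -0.09 log2 units, and none passed the test. Over the 9969 genes above the median, 57.2% had a negative difference and the median was -0.01. With limma over all 24 arrays and Benjamini-Hochberg adjustment, 0 of the 82 members passed an adjusted p of 0.05, where 4 of 19938 genes did (0.0201%). At an unadjusted p under 0.05, 6 of the 14 differed, 5 lower and 1 higher, against 7.38% of genes above the median. Of all 82 members 9 did so, 5 lower and 4 higher, against 6.07% of all genes. In bulk tissue, fewer cells of a type and less RNA per cell cannot be told apart.

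Cyp2e1, which oxidises ethanol, acetone and other small molecules, gave the lowest p among the 14. In control fat it was 12.38, 12.28 and 12.27 at CT0, 12.40, 12.33 and 12.22 at CT6, 12.02, 12.25 and 12.41 at CT12, and 12.33, 12.29 and 12.17 at CT18, each for replicates 1 to 3. In knockout fat it was 11.85, 12.04 and 11.93 at CT0, 12.11, 12.09 and 11.98 at CT6, 12.38, 12.01 and 12.05 at CT12, and 12.15, 11.93 and 12.26 at CT18. All knockout arrays lay below all control arrays at CT0 and CT6. At CT12 the genotypes overlapped through the arrays labelled replicate 1, where the control array was at 12.02 and the knockout array at 12.38. The mean difference, knockout minus control, was -0.21 ± 0.05 (SE), a ratio of 0.862 with a 95% interval of -0.32 to -0.10 on the log2 scale (limma adjusted p = 0.240). The value lay below the control mean of its time on 11 of 12 knockout arrays.

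Whether Cyp2e1 passed depended on the arrays used. Without the 4 arrays its difference was -0.30 ± 0.04 (adjusted p = 0.00274, with 0.697% of all genes passing), and leaving out knockout replicate 1 at CT12 alone gave -0.24 with an adjusted p of 0.055. With limma's array weights it was -0.26 ± 0.05 (adjusted p = 0.0350, with 0.256% of all genes passing). Over 32 alternative settings the adjusted p ran from 0.00274 to 0.512, and the sign did not change. The 4 arrays were singled out with genes that differ by genotype, so the p without them overstates the evidence.

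Cyp2f2 had the largest mean difference in size of the 14 and the widest spread. Its control values were 6.94, 8.54 and 7.09 at CT0, 8.22, 8.87 and 7.78 at CT6, 5.90, 6.78 and 8.74 at CT12, and 6.60, 7.55 and 7.00 at CT18. Its knockout values were 6.22, 6.71 and 6.06 at CT0, 6.94, 6.67 and 6.56 at CT6, 8.41, 6.10 and 6.33 at CT12, and 6.83, 6.14 and 6.97 at CT18. Of the 7 arrays above 7.5, 6 were control arrays, and the remaining one was the array labelled knockout replicate 1 at CT12. At that time the array labelled control replicate 1 was the lowest of all 24.

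The mean difference of Cyp2f2 was -0.84 ± 0.29 (ratio 0.559, 95% interval -1.45 to -0.23, limma adjusted p = 0.634), with 11 of 12 knockout arrays below the control mean of their time. Without the 4 arrays it was -1.22 ± 0.25 (adjusted p = 0.0324, with 0.697% of all genes passing), and over all settings the adjusted p ran from 0.0324 to 0.876. The p without these arrays overstates the evidence here too, since they were singled out with genes that differ by genotype. Brown adipocyte markers (7 measured, 3 of them above the median of all genes on these arrays) had means of 6.66 on control replicate 2 at CT0 and 6.68 on control replicate 2 at CT6, where Cyp2f2 was 8.54 and 8.87. On the other 22 arrays the marker mean lay between 5.62 and 6.14, including control replicate 3 at CT12 (5.74), where Cyp2f2 was 8.74. The part of these cells in the Cyp2f2 values was not tested.

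Cyp1b1 was 7.53, 7.43 and 7.48 in control and 6.77, 6.05 and 7.53 in knockout fat at CT0. At CT6 it was 7.71, 7.48 and 7.63 against 7.55, 7.22 and 7.31, at CT12 7.20, 7.55 and 7.70 against 7.70, 7.74 and 7.22, and at CT18 7.46, 7.73 and 7.31 against 7.00, 7.18 and 7.18. The knockout mean was lowest at CT0 (6.78 ± 0.74, SD, n = 3) through 2 of its arrays, while replicate 3 (7.53) lay above all knockout arrays at CT18, and the genotypes did not overlap at CT18. The mean difference was -0.31 ± 0.12 (limma adjusted p = 0.655). It was -0.22 without knockout replicate 2 at CT0, the array at 6.05 with the marker values given above, whose part in the value was not tested.

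The other members with an unadjusted p under 0.05 differed by less. Cyp2d22, often taken as the mouse counterpart of human CYP2D6, had group means of 8.58 to 8.95 in control and 8.40 to 8.81 in knockout fat, and a mean difference of -0.17 ± 0.08 (adjusted p = 0.797). Cyp2j9, of the arachidonic acid epoxygenase subfamily, was 7.46, 7.70 and 7.23 in control and 7.36, 6.96 and 7.26 in knockout fat at CT0, and at CT12 7.42, 7.48 and 7.55 against 7.54, 7.41 and 7.38. Its genotypes overlapped at every time, and it had a mean difference of -0.15 ± 0.06 (adjusted p = 0.771), with 10 of 12 knockout arrays below the control mean. The probes of Cyp2d and Cyp2j genes may also read transcripts of near-identical paralogues, which leaves these values uncertain. Among the members not above the median, 3 had an unadjusted p under 0.05 and all 3 had positive differences: Cyp2c66 (0.16), Cyp2a22 (0.16) and Cyp26a1 (0.15). Of the 6 expressed members, Cyp2b23 was the only one that was higher, by 0.15 ± 0.07 (adjusted p = 0.771), with 8 of 12 knockout arrays above the control mean.

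**Figure D2:**
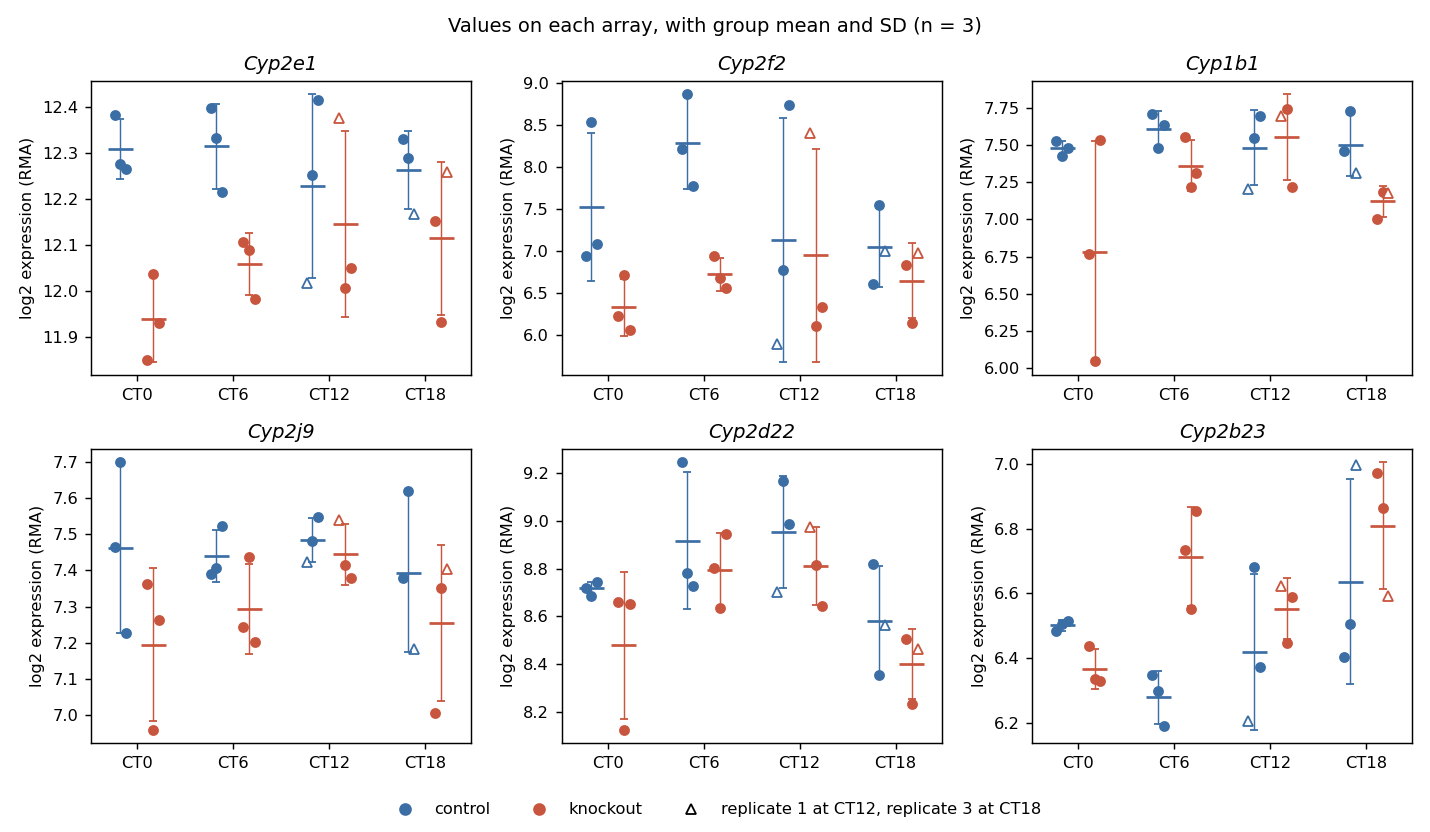
Log2 expression on each array of the 6 expressed P450 genes with the lowest p for genotype, by circadian time, in control (blue) and knockout (red) fat, with the group mean and SD (n = 3). Triangles mark the arrays labelled replicate 1 at CT12 and replicate 3 at CT18; for Cyp2e1 and Cyp2f2 at CT12 the control triangle (12.02 and 5.90) lies below its group mates and the knockout triangle (12.38 and 8.41) above its own.

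The remaining 8 expressed members had mean differences between -0.15 and 0.12. Cyp4b1, which hydroxylates fatty acids and activates protoxins outside the liver, had a mean difference of -0.15 ± 0.10 (limma adjusted p = 0.910, 95% interval -0.36 to 0.05). Cyp4f13 had a difference of -0.09 ± 0.05 and Cyp2j6 one of -0.09 ± 0.08, while Cyp2d40 had 0.12 ± 0.09. Cyp27a1 (-0.04 ± 0.06), Cyp20a1 (0.05 ± 0.06), Cyp39a1 (0.07 ± 0.10) and Cyp4f16 (0.00 ± 0.05) had intervals on both sides of 0. The value of Cyp39a1 turned to -0.02 without knockout replicate 2 at CT0, where the gene was at 7.76 against 6.41 to 7.19 on the other arrays.

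**Figure D3:**
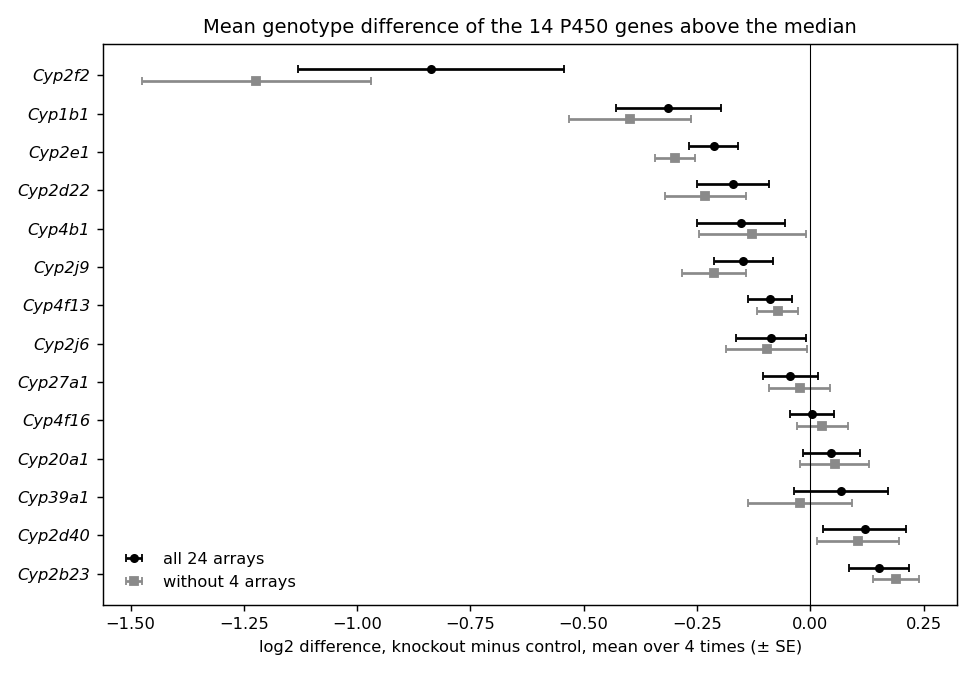
Mean genotype difference (log2, knockout minus control, averaged over 4 times) and its SE for the 14 expressed P450 genes, on all 24 arrays (black circles) and without 4 arrays (grey squares). Cyp2f2 (-0.84 and -1.22) and Cyp2e1 (-0.21 and -0.30) lie farther from 0 in the fit without them, and Cyp2b23 and Cyp2d40 lie above 0 in both.

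At single times, none of the 82 members passed the adjusted threshold at CT0, CT6, CT12 or CT18, where 0, 0, 0 and 1 gene of all did (0%, 0%, 0% and 0.00502%). At CT0 all 3 knockout arrays lay below all 3 control arrays for 5 of the 14 (Cyp2e1, Cyp2d22, Cyp2j6, Cyp2f2 and Cyp2b23) and above them for 0, while 10.8% of all genes did not overlap in either direction. The gap was narrow for Cyp2d22 (highest knockout array 8.66, lowest control array 8.69), Cyp2j6 (7.45 and 7.46) and Cyp2b23 (6.44 and 6.48). Without knockout replicate 2 the difference of Cyp2d22 went from -0.24 to -0.06 and that of Cyp2j6 from -0.26 to -0.07. That of Cyp2b23 went from -0.13 to -0.12, of Cyp2e1 from -0.37 to -0.42 and of Cyp2f2 from -1.19 to -1.38. The difference of Cyp2e1 at CT0 was -0.37 ± 0.11 (limma adjusted p = 0.630). That of Cyp1b1 was -0.70 ± 0.23 (adjusted p = 0.794), and it ran from -1.07 without knockout replicate 3 to -0.33 without knockout replicate 2.

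At CT6 Cyp2e1 and Cyp2f2 lay below all controls and Cyp2b23 above them, against a background of 11.3%. Cyp2b23 was 6.73, 6.55 and 6.85 in knockout and 6.35, 6.30 and 6.19 in control fat, a difference of 0.43 ± 0.13 (limma adjusted p = 1.00). Cyp2f2 differed by -1.57 ± 0.59 (adjusted p = 1.00) and Cyp2e1 by -0.26 ± 0.11.

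At CT12 none of the 14 was free of overlap (8.09% of all genes were), and their differences ran from -0.21 for Cyp4b1 to 0.13 for Cyp2b23. Without the 4 arrays they ran from -1.54 for Cyp2f2 (-0.19 with all arrays) to 0.17 for Cyp2j6, with Cyp2e1 at -0.30 (-0.08 with all arrays). Without knockout replicate 1 at CT12 alone, Cyp2f2 stood at -0.92. At CT18, where 8.58% of all genes did not overlap, Cyp4b1, Cyp27a1 and Cyp1b1 were lower on all knockout arrays. Their differences were -0.28 ± 0.19, -0.19 ± 0.12 and -0.38 ± 0.23, with adjusted p of 0.872, 0.855 and 0.855. Cyp4b1 at that time was 8.69, 8.40 and 8.47 in control and 8.11, 8.38 and 8.22 in knockout fat, so the highest knockout array lay just below the lowest control array. In all, 12 of the 14 had a negative difference at CT18, with a median of -0.14, where 58.9% of genes above the median were negative.

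Over circadian time, none of the 82 members passed the F test in control fat (12 of all genes did, 0.0602%), in knockout fat (14 did, 0.0702%) or for the genotype by time interaction (0 did, 0%). In control fat 0 of the 14 reached an unadjusted p under 0.05, against 6.61% of genes above the median. The 4 lowest p-values there belonged to Cyp2b23 (F = 2.52, limma adjusted p = 0.877), Cyp2d22 (F = 2.46), Cyp2f2 (F = 1.85) and Cyp4b1 (F = 1.82). The control means of Cyp4b1 were 8.12 ± 0.20 (SD, n = 3) at CT0, 8.26 ± 0.14 at CT6, 8.46 ± 0.09 at CT12 and 8.52 ± 0.15 at CT18. The step of Cyp4b1 from CT0 to CT18 exceeded the SD of either group, but the F test over 4 times did not pass. The control means of Cyp2d22 were 8.72 ± 0.03, 8.92 ± 0.28, 8.95 ± 0.23 and 8.58 ± 0.23.

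In knockout fat 5 of the 14 reached an unadjusted p under 0.05, against 17.9% of genes above the median. Of all 82 members 10 did so (12.2%), against 13.4% of all genes. The 5 expressed members were Cyp27a1 (F = 4.70, adjusted p = 0.258), Cyp2b23 (F = 4.23, 0.283), Cyp1b1 (F = 4.13, 0.287), Cyp2d22 (F = 3.55, 0.329) and Cyp4f13 (F = 3.41, 0.342). The knockout arrays of Cyp2b23 were at 6.44, 6.34 and 6.33 at CT0, 6.73, 6.55 and 6.85 at CT6, 6.62, 6.45 and 6.59 at CT12, and 6.97, 6.86 and 6.59 at CT18, with the 3 arrays of CT0 below all the others. On single arrays Cyp27a1 ran at 7.40, 7.06 and 7.56 at CT0 and at 7.73, 7.76 and 7.80 at CT6 in knockout fat, so all 3 arrays at CT6 lay above those at CT0. The knockout means of Cyp27a1 were 7.34 ± 0.26 at CT0, 7.77 ± 0.04 at CT6, 7.67 ± 0.14 at CT12 and 7.55 ± 0.10 at CT18 (SD, n = 3). All of them except Cyp2b23 had their lowest value of the 24 arrays on knockout replicate 2 at CT0, with the marker values given above, and the part of that array was not tested. Without knockout replicate 3 at CT0, which was higher for Cyp1b1 (7.53) than its group mates (6.77 and 6.05), Cyp1b1 alone passed the threshold (F = 13.8, adjusted p = 0.0362, against 0.0362 to 0.559 over all settings). In that fit 27 of all genes passed (0.135%), against 14 with all arrays. The fit kept knockout replicate 2 at CT0 (6.05). With each array left out in turn, the F of Cyp1b1 ran from 2.70 to 13.8, and it passed in 1 of 24 fits.

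The interaction F of Cyp2b23 was 3.06, of Cyp27a1 2.75 and of Cyp1b1 1.89, all with a limma adjusted p of 1.00. The genotype difference of Cyp27a1 was -0.19 at CT18 and 0.22 at CT6, and neither passed. No difference in time course between genotypes was detected for these members.

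**Figure D4:**
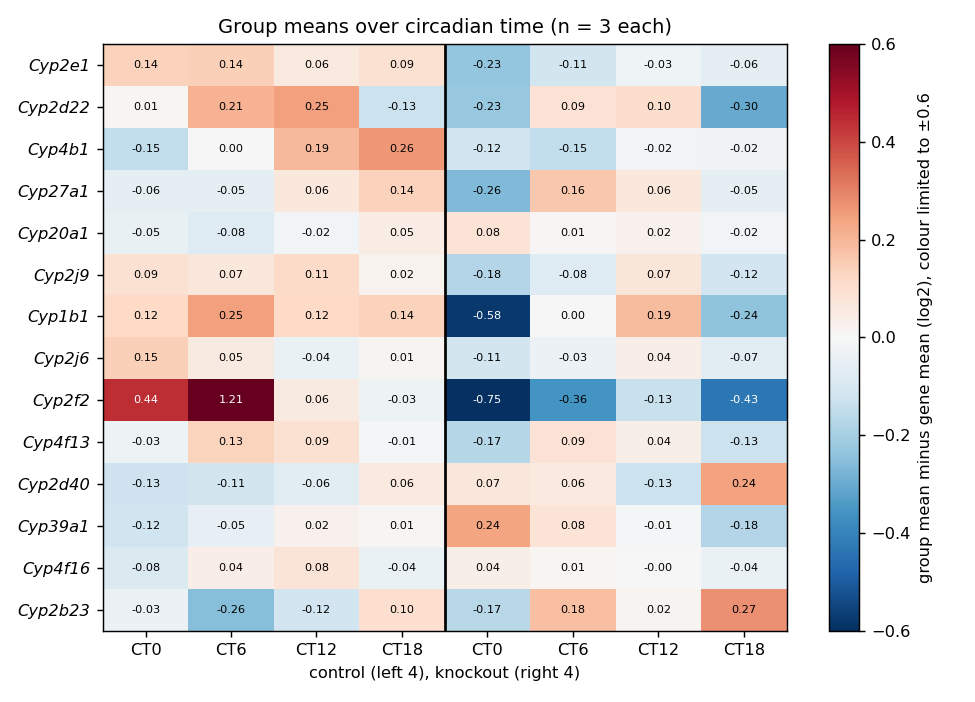
Group means of the 14 expressed P450 genes minus the mean of the gene's 8 groups (log2, n = 3 per group), over circadian time in control fat (left 4 columns) and knockout fat (right 4 columns). Cyp2f2 stands 1.21 above its mean in control fat at CT6, and Cyp1b1 0.58 below its mean in knockout fat at CT0.

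Other genes of P450 biology were read from lists of known partners. Of 10 redox partners, 7 were measured, 0 passed for genotype and 5 were negative, with a median of -0.01. The lowest p was that of Cyb5a, the cytochrome b5 that passes an electron to several P450 enzymes, at -0.24 ± 0.07 (limma adjusted p = 0.508), followed by Fdx1 at -0.09. Of 9 genes of haem supply 8 were measured and 0 passed; Alas1, the rate-limiting enzyme of haem synthesis, differed by -0.21 ± 0.09 (adjusted p = 0.725) and Ppox by -0.07. The 11 xenobiotic sensors and partners, among them Arnt (-0.08) and Ahr (-0.06), had a median of -0.02, and 0 passed.

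Of the 2 epoxide hydrolases, which open the epoxides that P450 enzymes make, Ephx1 differed by -0.25 ± 0.10 (adjusted p = 0.714) and Ephx2 by 0.10 ± 0.07. Cyp51, Ptgis and Tbxas1, P450 enzymes whose symbols fall outside the rule, differed by -0.06, -0.02 and 0.01. The 3 PAR bZIP factors had negative differences with 0 passing, led by Dbp at -0.16 ± 0.08 and Hlf at -0.14 ± 0.07. Dbp and Hlf changed over circadian time in both genotypes, with limma adjusted p of 0.000511 and 0.0214 in control and 0.0119 and 0.0254 in knockout fat. Tef passed neither test, with limma adjusted p of 0.0502 in control and 0.237 in knockout fat, and none of the 82 P450 genes passed either test.

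Liver transcripts were highest on 1 array, and several P450 genes stood higher on it than on any other array. On knockout replicate 2 at CT6, 12 of 19 measured liver markers lay more than 1 log2 unit above their own median, and the mean of all 19 was 7.41 against 5.48 to 6.30 on the other arrays. Liver markers were also raised, to a lower level, on control replicate 2 at CT18 (mean 6.30, with 4 of 19 more than 1 above their own median), control replicate 1 at CT0 (6.10, 3 of 19) and knockout replicate 1 at CT0 (5.97, 1 of 19). Alb, serum albumin, was 11.15 there against a mean of 6.92 on the other 2 arrays of its group, and Apoa2 was 11.49 against 7.10. Off this array Alb reached 8.96 and Apoa2 9.52. 11 of the 82 P450 genes lay more than 1 above the same 2 arrays (13.4%), where 54 of all genes did (0.271%). All 11 were among the 68 members not above the median, and 0 of the 14 expressed members were among them.

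The step was greatest for Cyp4a14, a fatty acid omega-hydroxylase that fasting induces in liver, at 8.22 against a mean of 4.85. On the remaining arrays Cyp4a14 ran from 4.53 to 5.94, and its next values were 5.94 on control replicate 1 at CT0, 5.53 on knockout replicate 1 at CT0 and 5.22 on control replicate 2 at CT18. Those 3 arrays also followed in the mean of the liver markers, with 6.10, 5.97 and 6.30. Other raised members were mixed in this. The next values of Cyp2c29 (4.21) and Cyp2c50 (4.48), both on control replicate 2 at CT18, were on such arrays. So was the next value of Cyp2b13 (4.20, knockout replicate 1 at CT0). Those of Cyp4a10 (5.12, control replicate 1 at CT18) and Cyp2b9 (5.08, knockout replicate 3 at CT18) were not. The next largest steps were those of Cyp2c29 (6.01 against 3.88), Cyp2b9 (6.55 against 4.59), Cyp4a10 (6.64 against 4.68), Cyp2b13 (5.50 against 3.58) and Cyp2c50 (5.81 against 4.25). By subfamily these were 3 of 3 Cyp4a, 4 of 13 Cyp2c, 2 of 5 Cyp2b, 1 of 9 Cyp2d and 1 of 6 Cyp2j genes, with 0 of 6 Cyp3a and 0 of 8 Cyp4f genes. At a step of 0.5 they were 19 of the 82, against 1.2% of all genes, and 4 of 6 Cyp3a genes were among them (median step 0.55 in Cyp3a and -0.01 in Cyp4f). The Cyp4a, Cyp2b, Cyp2c and Cyp3a genes lie in clusters of close paralogues, so which member was read is uncertain. Cyp2e1, which liver also makes in abundance, was 12.09 on this array against 12.11 and 11.98 on its group mates.

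**Figure D5:**
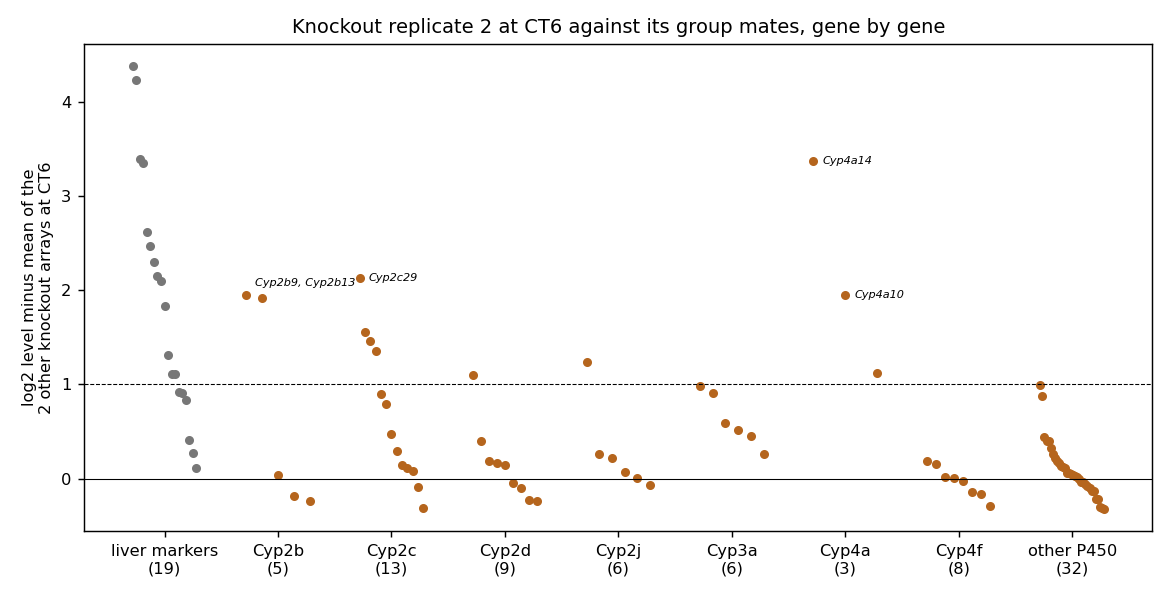
Log2 expression on knockout replicate 2 at CT6 minus the mean of the 2 other knockout arrays at CT6, for 19 liver markers (grey) and the 82 P450 genes by subfamily (brown). The dashed line marks a step of 1 log2 unit; 11 P450 genes lie above it, led by Cyp4a14 at 3.38.

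The genotype differences of these genes at CT6 fell without that array. The genes were chosen for standing high on it, so this fall was fixed in advance and is no separate support. With it, Cyp4a14 was 1.14 higher in knockout fat at CT6, and without it 0.02. Cyp2c29 went from 0.57 to -0.14, Cyp2b9 from 0.58 to -0.07 and Cyp2b13 from 0.60 to -0.04. Among all 82 members, 11 were higher and 2 lower at an unadjusted p under 0.05 at CT6 with the array, and 4 higher and 2 lower without it. These are 15.9% and 7.32% of the members, against 3.77% and 4.27% of all genes. Of the expressed members, Cyp2e1 had -0.26 with the array and -0.27 without it, Cyp2f2 -1.57 and -1.54, and Cyp2b23 0.43 and 0.52.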

How the data were processed

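Log2 values per probe set, summarised by the authors with RMA per the submitters' processing notes, were used as deposited. The sources used here give neither the RMA version nor hybridisation dates. Of 35556 probe sets, 21789 had 1 symbol in the platform annotation, 1621 had several and 12146 were unnamed here. Symbols were compared with RefSeq through Entrez numbers (21698 matched, 0 changed). Of several probe sets the one with the highest mean was kept (999 genes), and no dim gene was left out, which gave 19938 genes. Their median lay between 6.46 and 6.56 on each array, and correlations between arrays of a group between 0.976 and 0.995.

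A model of the 8 groups was fitted with limma 3.58.1 in R 4.3.3 to all 24 arrays and all genes, with 16 residual and 5.03 prior degrees of freedom, Benjamini-Hochberg adjustment over all genes and a threshold of 0.05. Differences are knockout minus control, errors are the SE of the fit unless called SD, and tests are two-sided. The fit was tested on simulated data. The p-values measure the spread between animals, and precision is limited by how many arrays there are. The members, the lists of partners and markers and the alternatives were chosen with earlier results of these data known. Expressed members are named with their means; those given array by array or by group had the lowest p in a comparison. Up to 6 members raised on an array with at least 10 raised liver markers and the 2 genes of a partner list with the smallest p were named too. Replicate numbers were not taken to pair the arrays, since 5 of 12 same-numbered pairs correlated over 0.1, and alternatives are given in the closing section.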

Additional observations from a re-analysis of the deposited data

Results flagged for a closer look

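The genotype difference of Cyp2b23 had opposite signs at 2 times, and neither passed. The value at CT0 was -0.13 ± 0.13 (limma adjusted p = 0.977), about the size of its SE. At CT0 all 3 knockout arrays (6.44, 6.34 and 6.33) lay below the control arrays (6.48, 6.51 and 6.52), and at CT6 all 3 (6.73, 6.55 and 6.85) lay above them (6.35, 6.30 and 6.19). The difference at CT6 exceeded that at CT0 by 0.57 log2 units. This step between the 2 times was not tested by itself. The limma interaction over all 4 times had an adjusted p of 1.00.

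Of the 7 probe sets that carry a P450 symbol together with other symbols and were left out of the comparisons, 6 lay above all control arrays on the array with the highest liver markers, knockout replicate 2 at CT6. The largest step over its group mates among them was 2.81 log2 units, from 3.68 to 6.49, and the one that was not above all controls stood at 8.06 against a mean of 8.04. No gene is named from these probe sets.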

How the results depend on the processing

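Each comparison was repeated with quantile normalization, only genes above the median, other probe sets, a trended robust prior, array weights, only the arrays of 1 time, without the liver array, without 4 arrays and without each array in turn. Of the counts of members past the threshold and of raised members, 252 kept within 1.5 times of their value and 4 did not. For the mean genotype difference the count rose from 0 to 1 with array weights (51 of all genes passed) and to 2 without the 4 arrays (139 passed, 0.697%). For time in knockout fat, leaving out 1 array gave 0 to 1. The number of members raised on the liver array was 19 with a step of 0.5 (240 of all genes) and 11 against the median of the other arrays (54 of all genes), both chosen after seeing the data. Of values for single genes, 1062 kept their direction and side of the threshold, 4 passed it and 13 changed sign. Cyp39a1 turned from 0.07 to -0.0015 with array weights and to -0.022 without the 4 arrays, and leaving out 1 array gave -0.022 to 0.12. Cyp4f16 ran from -0.018 to 0.025 when 1 array was left out. Cyp2b23 at CT12 turned from 0.13 to -0.0099 without the 4 arrays. The cause of these turns was not tested. With the replicate number as a block, 0 members passed in any comparison, and the adjusted p of Cyp2e1 was 0.293, so no call of a member changed. Deviations of same-numbered arrays from their group means correlated at -0.37 to 0.37 (at CT0 0.19, 0.37 and 0.33, all over 0.1), and 5 of 12 control arrays correlated best with their own number.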
